A study of Hebeloma cylindrosporum with 4 samples.

Results

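A set of 159 gene models of the fungus Hebeloma cylindrosporum was abundant in every library. In the deposited RPKM each varied at most 2-fold over free-living mycelium and ectomycorrhiza. With TMM, a scaling explained below, 114 were called higher in ectomycorrhiza and 0 lower, against 24.3% and 27.5% of all tested gene models. With upper-quartile scaling the calls were 78 and 0, against 18.3% and 38.2%. With total reads alone they were 16 and 7, against 12.4% and 55.8%. These counts are a description, since the limits used the same libraries. The 159 gene models were chosen from 15382 by 3 limits on the deposited values. RPKM, the reads per kilobase of transcript scaled to all gene reads of the library, had to be 150 or more in all 4 libraries. The highest of the 4 RPKM values could be at most 2 times the lowest. At least 0.5 of the reads summed over the libraries had to match no other gene model. Because all 4 libraries entered these limits, the steady RPKM of the members is how they were chosen and is described here without a test.

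The mycelium group held 2 libraries from 6-day-old pure cultures of the wild-type diploid strain TV98 IV3. The cultures were grown on Melin-Norkrans agar with 0.5 g per litre of fructose, on a cellophane layer from which the mycelium was lifted. The ectomycorrhiza group held 2 libraries of root tips formed with maritime pine, Pinus pinaster, a symbiosis in which fungal and plant tissue grow together. Those seedlings were inoculated at 20 days with a mycelial homogenate and kept in a greenhouse in 0.5-litre pots of sterilized soil with 80% organic matter. No agent or genetic change was applied in either group. The growth text describes 1 strain for the work, and the strain field itself is filled in for the mycelium libraries. The groups differ in host, substrate and growth site together, so these cannot be told apart. The series text calls the 2 libraries of a group biological replicates, and pots, plants and cultures are not named, so the spread between libraries may be partly technical.

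An ectomycorrhizal fungus lives on as mycelium in soil and also wraps fine roots in a mantle, from which hyphae grow between the outer root cells and exchange mineral nutrients for plant sugars. Many genes change their transcript level between these states. Some transcripts are needed in quantity by any growing cell, such as those for ribosomes, the cytoskeleton and energy metabolism, and genes of that kind are commonly used as references for expression measurements. The deposited tables pair the Hebcy2 protein IDs of the Joint Genome Institute with a transcript length and no product, so no function is given to any gene model here. Which of the 159 belong to such classes was therefore not analysed, and no sequence is shown. The tissue labels could not be checked against marker genes for the same reason.

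The members were sampled deeply. The libraries held 17774509 and 19341938 gene reads in mycelium and 4748150 and 3967725 in ectomycorrhiza. The member with fewest reads in a library had 1376 and 1662 in mycelium and 441 and 277 in ectomycorrhiza. Counting error alone is then 2.70%, 2.45%, 4.76% and 6.01% of the value (1 SD), and at the median member it is 1.18%, 1.15%, 2.14% and 2.36%. The reads carry no molecular identifiers, so this covers counting error only. For 146 members all reads matched that gene model alone, and the limit on shared reads removed no gene model that met the other 2. How pine reads were kept out is not given in the sources used here, and their part in the ectomycorrhiza values was not tested.

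Of 356 gene models at 150 RPKM or more in all 4 libraries, 159 (44.7%) met the limit of 2 and 197 did not. The members are 1.03% of all gene models. In mycelium alone, 719 gene models met the 3 limits over the 2 libraries; of these, 370 were under 150 RPKM in an ectomycorrhiza library and 190 others spread more than 2-fold once all 4 libraries were counted. In ectomycorrhiza alone the corresponding numbers were 659, 320 and 180. A gene model that was abundant and steady within one tissue was therefore a member in 22.1% of the cases counted from mycelium and 24.1% of those counted from ectomycorrhiza.

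Together the members took a near-constant part of the gene reads within mycelium and a larger one in ectomycorrhiza. They held 9.64% and 9.60% of the gene reads in mycelium replicates 1 and 2, and 11.8% and 11.1% in ectomycorrhiza replicates 1 and 2. Exact 95% binomial intervals for these shares ran from 9.62 to 9.65, 9.59 to 9.62, 11.82 to 11.88 and 11.08 to 11.14, counting error only. The group means were 9.62% ± 0.0230 and 11.5% ± 0.522 (SD, n = 2), with both ectomycorrhiza libraries above both mycelium libraries. The 197 other abundant gene models held more, 26.7% ± 4.15 in mycelium and 29.1% ± 1.19 in ectomycorrhiza (SD, n = 2), and there the groups overlapped. The smallest p of a two-sided exact permutation test is 0.33 at n = 2 per group, so no test is given for these shares. The limits bounded the RPKM values behind the members' shares, which are therefore a description only.

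The members covered a wide range of levels. Their mean RPKM over the 4 libraries ran from 165 to 7437, with a median of 346 and quartiles at 251 and 597. By library, the median member stood at 325 and 316 RPKM in mycelium and 379 and 328 RPKM in ectomycorrhiza, where the median over all gene models was 12.6, 11.3, 4.32 and 4.58. Levels thus differed far more between members than the 2-fold allowed within one. Ordered by RPKM within each library, the members fell between places 6 and 842 of all gene models.

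**Figure D1:**
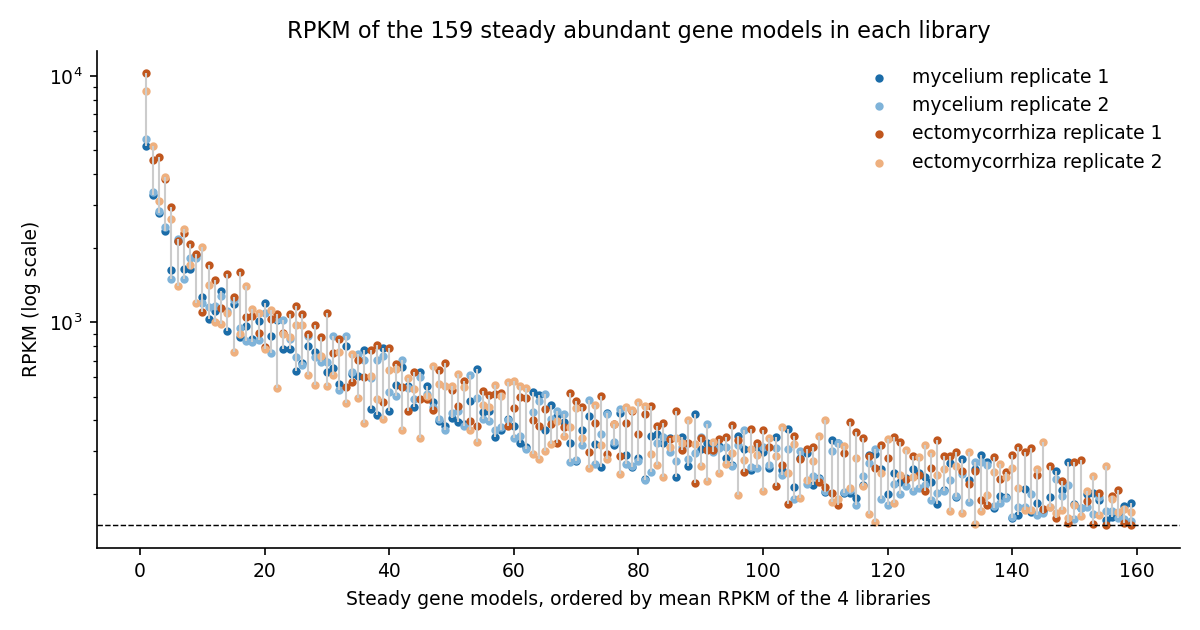
RPKM (log axis) of each of the 159 gene models in the 4 libraries, ordered by mean RPKM; each grey line joins the lowest and highest library of 1 gene model, and the dashed line is the floor of 150. The most abundant member stands at 5186 to 10268 RPKM, and most members lie between 150 and 600.

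The 5 most abundant members lay higher in both ectomycorrhiza libraries than in both mycelium libraries. Of the 17 members with a mean of 1000 RPKM or more, 8 had both ectomycorrhiza libraries above, 2 had both below and 7 overlapped. Over all 11471 tested gene models, 17.5% had both above and 68.4% both below. The limits used these values, so nothing is read from the contrast. Gene model 385314, with a transcript of 856 bp, had 5186 and 5571 RPKM in mycelium and reached 10268 and 8725 in ectomycorrhiza. Its highest value was 1.98 times its lowest, close to the limit. Gene model 80822, of 1844 bp, had 3288 and 3398 RPKM in mycelium and 4577 and 5217 in the ectomycorrhiza libraries, a highest over lowest of 1.59. Gene model 448050, of 500 bp, had 2783 and 2832 RPKM in mycelium and 4706 and 3114 in ectomycorrhiza. The ectomycorrhiza replicates of this short transcript lay further apart than the mycelium replicates, at 3910 ± 1126 against 2808 ± 34.3 RPKM (SD, n = 2). Gene model 279009, of 965 bp, had 2358 and 2440 RPKM in mycelium, below the 3838 and 3912 in ectomycorrhiza. Gene model 144946, of 1413 bp, had 1625 and 1505 RPKM in mycelium and 2950 and 2638 in ectomycorrhiza. The 5 together took 1.67% ± 0.0330 of the mycelium gene reads and 2.68% ± 0.0924 of the ectomycorrhiza gene reads (SD, n = 2).

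The 5 steadiest members had mean RPKM values of 194 to 514 and transcripts longer than the members' median of 1165 bp. Gene model 91143, of 1448 bp, had the smallest spread of all, with 310.1 and 298 RPKM in mycelium and 303 and 328 in the ectomycorrhiza libraries, a highest over lowest of 1.10. Gene model 441875, of 2001 bp, had 343 and 310.4 RPKM in mycelium, against 303 and 324 in ectomycorrhiza. Gene model 439703, of 1583 bp, had 551 and 512 RPKM in mycelium and 486 and 505 in ectomycorrhiza. In 439703 both ectomycorrhiza libraries were below both mycelium libraries, and in the other 4 of these 5 the groups overlapped. Gene model 437858, of 1460 bp, had 339.6 and 298 RPKM in mycelium, against 335 and 312 in ectomycorrhiza. Gene model 441362, of 1686 bp, had 202 and 178 RPKM in mycelium and 188 and 207 in ectomycorrhiza. Their ratios of highest to lowest were 1.10 to 1.16 on the RPKM scale.

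Across the set the ratio of highest to lowest RPKM had a median of 1.60 and quartiles of 1.42 and 1.79. It was at most 1.3 in 18 members, at most 1.5 in 54 and at most 1.8 in 122. The coefficient of variation over the 4 libraries was 22.0% at the median member. At the floor and at the ratio limit gene models lay close on both sides, while no member lay near the limit on shared reads. The member with the lowest single value, 445452, had 185 and 156 RPKM in mycelium and 150.5 and 170.3 in ectomycorrhiza, while gene model 152589 missed the floor with 149.9 and 164 against 178 and 158 RPKM. Gene model 165548 came nearest to the ratio limit from inside, with 367 and 307 RPKM in mycelium and 184 and 244 in ectomycorrhiza, a ratio of 1.999. Gene model 441811 fell just outside at 2.02, with 9669 and 9485 RPKM in mycelium and 7983 and 4795 in ectomycorrhiza. The member with the lowest share of reads of its own was 443573, at 86.0%, and 152 members had 99% or more; 443573 had 176 and 177 RPKM in mycelium and 277 and 164 in ectomycorrhiza.

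Within the 2-fold limit the libraries were still ordered by tissue in many members. Both ectomycorrhiza libraries were above both mycelium libraries in 66 members, both were below in 32, and the groups overlapped in 61. Among the 11471 gene models tested for a difference below, 17.5% had both ectomycorrhiza libraries above and 68.4% had both below on the same RPKM scale; the limits use these values, so nothing is read from the contrast. The mean RPKM in ectomycorrhiza over that in mycelium had a median of 1.18 over the members, with a range of 0.577 to 1.91, and the tissue means differed by at most 1.3-fold in 82 of them. The median over all tested gene models was 0.449. In bulk tissue, fewer cells that express a gene and less RNA per cell cannot be told apart.

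**Figure D2:**
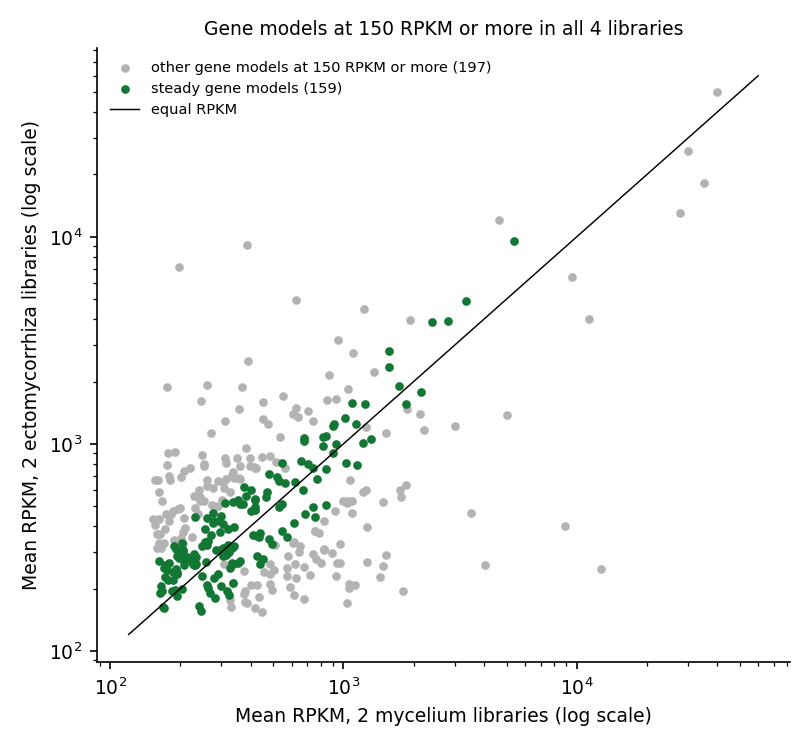
Mean RPKM in ectomycorrhiza against mean RPKM in mycelium (both axes log) for the 356 gene models at 150 RPKM or more in all 4 libraries. The 159 steady gene models lie along the line of equal RPKM by construction, and the 197 others lie on both sides of it. The log2 ratios of ectomycorrhiza to mycelium means of these 197 run from -5.67 to 5.19.

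The ends of the tissue ratio show how far a member could differ. Gene model 442256, of 1080 bp, had 232 and 229 RPKM in mycelium and 426 and 456 in the ectomycorrhiza libraries, so its tissue means were 1.91-fold apart with replicates close together. Gene model 443661, of 721 bp, had 323 and 325 RPKM in mycelium and 182 and 192 in ectomycorrhiza, 0.577 of the mycelium mean. In both the groups were apart and each pair of replicates differed by less than the tissues did. These are the members with the largest and the smallest fitted log2 fold change.

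The replicates of a tissue were closer in mycelium than in ectomycorrhiza. The median absolute log2 RPKM ratio between replicates was 0.11 in mycelium and 0.30 in ectomycorrhiza, and between the tissue means it was 0.38. The ectomycorrhiza replicates were further apart than the mycelium replicates in 128 of 159 members, and further apart than the tissue means in 81. Ectomycorrhiza replicate 1 gave the highest value of the 4 in 71 members and replicate 2 in 43, against 26 and 19 for the mycelium libraries. For the 197 other abundant gene models the same medians were 0.17, 0.45 and 1.21, and 175 of them had neither pair of replicates more than 2-fold apart. Their groups overlapped in 15 cases, with ectomycorrhiza above in 101 and below in 81.

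Whether the members count as steady between tissues depended on how the libraries were scaled. RPKM divides by each library's own sum of gene reads. TMM, the trimmed mean of M values, instead sets the libraries so that the bulk of gene models is unchanged on balance, and gave factors of 1.47 and 1.32 for mycelium and of 0.683 and 0.755 for ectomycorrhiza. On that scale every member moved up in ectomycorrhiza relative to mycelium, on average by the ratio of the mean factors, 1.94-fold. All 159 passed the filter on low counts, as their floor ensured. With TMM scaling, 114 of the 159 were higher in ectomycorrhiza and 0 were lower (n = 2 per group; quasi-likelihood test of edgeR, p adjusted over 11471 gene models by Benjamini-Hochberg, threshold 0.05), where 51.8% of all tested gene models were called, 24.3% higher and 27.5% lower. At an unadjusted p under 0.05, 123 were higher and 0 lower, against 27.2% and 32.3% of all tested gene models. DESeq2 called 124 higher and 0 lower (26.4% of all tested higher and 22.8% lower), and limma-voom 114 and 0 (24.7% and 28.6%). With total reads alone as the scaling, edgeR called 16 members higher and 7 lower, where 12.4% of all tested gene models were called higher and 55.8% lower. The limits used the same contrast on the total-read scale, so these counts describe the members and support nothing about them. Without mycelium replicate 1 the number called higher under TMM was 42 (15.6% of all tested), and without mycelium replicate 2 it was 61 (15.8%).

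The median log2 fold change of the members was 1.20 with TMM scaling and 0.24 with total reads alone. Over all tested gene models it was -0.20 and -1.15. A change of scaling shifts all gene models alike, so it cannot move the members against the rest. Under TMM the members' log2 fold changes ran from 0.16 to 1.89 and none was below 0. Under total reads they ran from -0.79 to 0.94, with 55 below 0. With RLE scaling the median was 1.29, with 118 higher and 0 lower, and with upper-quartile scaling it was 0.81, with 78 higher and 0 lower. Over all tested gene models 26.2% were called higher and 25.4% lower with RLE, and 18.3% higher and 38.2% lower with upper-quartile scaling.

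**Figure D3:**
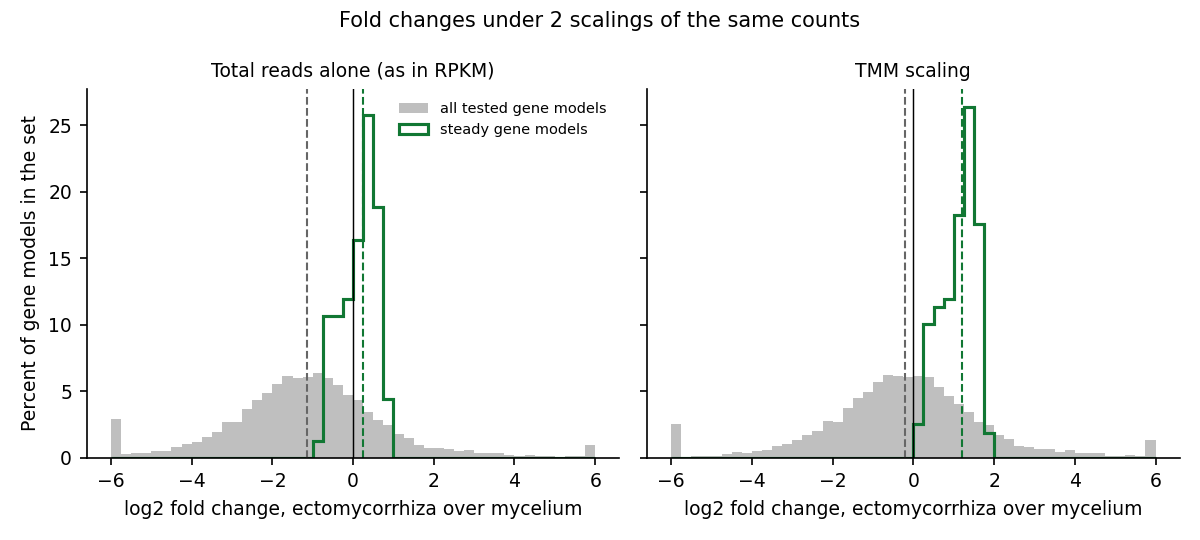
Percent of gene models by log2 fold change (ectomycorrhiza over mycelium, bins of 0.25, values beyond 6 drawn in the end bins) for all 11471 tested gene models (grey) and the 159 steady ones (green outline), with total reads alone and with TMM scaling. Dashed lines are the medians, -1.15 and 0.24 on the left and -0.20 and 1.20 on the right: the same counts shift as a block.

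The named members show this shift gene by gene. They were chosen from these same values, so the p-values printed here describe them and support nothing about them. For 385314 the log2 fold change was 0.82 (SE 0.24, edgeR adjusted p = 0.019) with total reads and 1.78 (SE 0.28, edgeR adjusted p = 0.0048) with TMM. On TMM-scaled RPKM it stood at 3537 and 4217 in mycelium and 15025 and 11550 in the ectomycorrhiza libraries, a highest over lowest of 4.25, the largest among the members. For 91143, the steadiest in RPKM, the log2 fold change was 0.05 (SE 0.22, edgeR adjusted p = 0.85) with total reads and 1.0 (SE 0.21, edgeR adjusted p = 0.012) with TMM. Its TMM-scaled RPKM was 211 and 226 in mycelium and 443 and 434 in the ectomycorrhiza libraries, so the tissues stood apart on one scale and overlapped on the other. Gene model 443661 was called with total reads and not with TMM. Its log2 fold change was -0.79 (SE 0.24, edgeR adjusted p = 0.023) with total reads and 0.16 (SE 0.22, edgeR adjusted p = 0.57) with TMM. Its TMM-scaled RPKM was 220.1 and 246 in mycelium and 266 and 255 in the ectomycorrhiza libraries, a highest over lowest of 1.21, the smallest among the members on that scale. For 442256 ectomycorrhiza was higher on both scales, with log2 fold changes of 0.94 (SE 0.23, edgeR adjusted p = 0.0097) and 1.89 (SE 0.22, edgeR adjusted p = 0.0019).

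On TMM-scaled RPKM the members with both ectomycorrhiza libraries above both mycelium libraries numbered 148, those with both below 0 and those with overlap 11; among all tested gene models 34.7% had both above and 45.5% both below on that scale.

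Applying the same 3 limits to RPKM rescaled by the TMM factors gave 108 gene models, of which 30 were members. That is 18.9% of the members and 27.8% of the TMM-scaled list. The other 78 all had both ectomycorrhiza libraries below both mycelium libraries in the deposited RPKM, as did 68.4% of all tested gene models. The shift between the 2 scales largely sets this, so nothing is read from it. With DESeq2 size factors the list had 118 gene models and shared 28 with the members, with upper-quartile factors 110 and 60, and with every library set to the same sum of RPKM 150 and 133. The members that met the limits under all 5 scalings numbered 26. The 30 shared with the TMM-scaled list leaned to mycelium in RPKM, which the same shift largely sets. Their ratio of tissue means ran from 0.577 to 0.959 with a median of 0.679, while their TMM log2 fold changes ran from 0.16 to 0.89. Of the 30, 3 were called, all higher, where 24.3% of all tested gene models were called higher and 27.5% lower. The 30 were within the limit on TMM-scaled RPKM by selection, so nothing is read from that count. The 5 most abundant members were not among them, since their TMM-scaled highest over lowest was 3.08 to 4.25. Of the 5 steadiest members in RPKM, 441875 and 439703 stayed under 2 on TMM-scaled values, at 1.90 and 1.89, and the other 3 stood at 2.04 to 2.17.

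**Figure D4:**
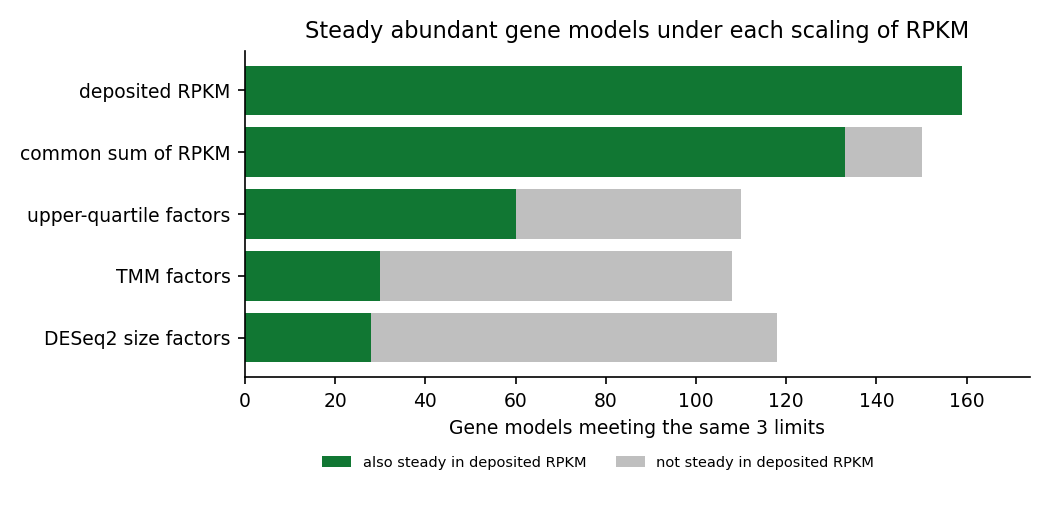
Number of gene models meeting the 3 limits when RPKM is taken as deposited or rescaled in 4 other ways; green marks those that are also steady in the deposited RPKM. The shared part falls from 159 to 133, 60, 30 and 28.

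Transcript length is the property in the tables that the limits did not bound directly, though RPKM divides by it. The members' transcripts were 423 to 4448 bp long, with a median of 1165 bp and quartiles of 857 and 1533 bp. The median was 1077 bp in the 197 other abundant gene models and 1108 bp over all 15382. Among the 11471 tested gene models, which leave out those with few reads, it was 1333 bp, longer than in the members. Under 600 bp lay 6.92% of the members, 10.2% of the other abundant gene models and 22.4% of all. At 600 to under 1200 bp the shares were 45.3%, 45.2% and 32.2%, and at 1800 bp or more 13.2%, 14.2% and 22.7%. Both abundant sets thus lay mostly in the middle of the length range.

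Length also went with the difference between the ectomycorrhiza replicates. The median log2 ratio of ectomycorrhiza replicate 1 over replicate 2 was 0.60 in the 11 members under 600 bp, 0.28 in the 72 of 600 to under 1200 bp, 0.07 in the 55 of 1200 to under 1800 bp and -0.19 in the 21 of 1800 bp or more. Replicate 1 was above replicate 2 in 11 of the 11 shortest and 6 of the 21 longest. In mycelium the same medians were -0.01, -0.03, 0.10 and 0.04. Across the 159 members, which share the same 2 libraries and are not independent replicates, the ratio had a Spearman rho of -0.49 with length in ectomycorrhiza and 0.26 in mycelium (Pearson's r -0.52 and 0.19). The 197 other abundant gene models had ectomycorrhiza medians of 0.67, 0.42, 0.01 and -0.45 over the same classes.

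The shortest and the longest member stand at opposite ends of that pattern. Gene model 64832, of 423 bp, had 183 and 203 RPKM in mycelium and 333 and 241 in ectomycorrhiza, with replicate 1 the higher. Gene model 444229, of 4448 bp, had 157 and 172 RPKM in mycelium and 151 and 262 in ectomycorrhiza, with replicate 2 the higher. In 444229 the ectomycorrhiza replicates were 206 ± 78.8 RPKM (SD, n = 2) and lay on both sides of the mycelium values. Both met the ratio limit, at 1.82 and 1.74. The part of transcript length in the replicate difference was not tested.

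**Figure D5:**
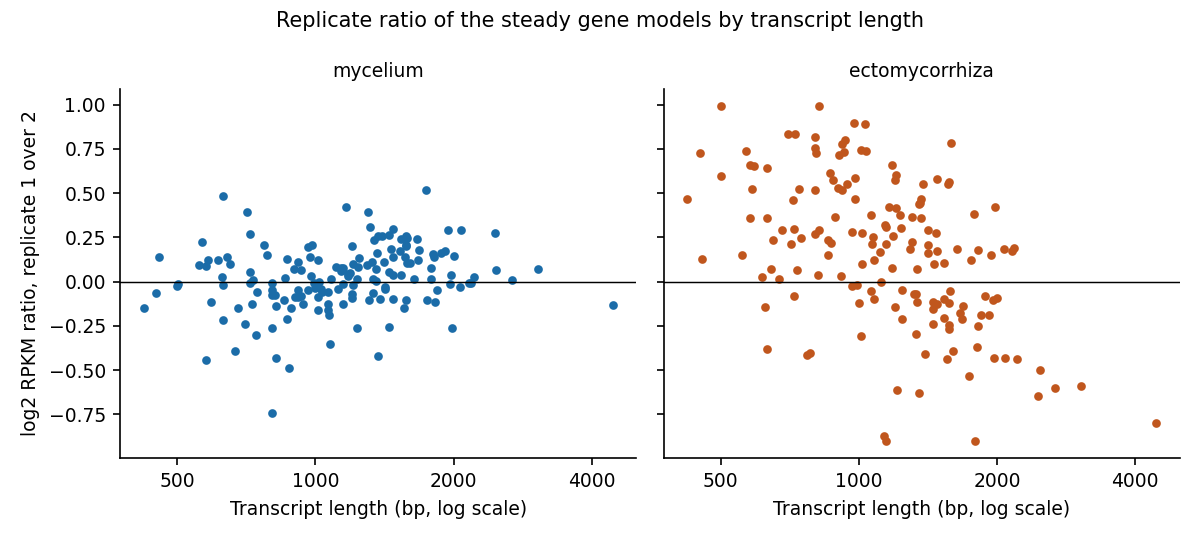
Log2 ratio of RPKM in replicate 1 over replicate 2 against transcript length (log axis) for the 159 steady gene models, in mycelium and in ectomycorrhiza; each point is 1 gene model. The ectomycorrhiza ratios fall from a median of 0.60 under 600 bp to -0.19 at 1800 bp or more, and the mycelium medians stay between -0.03 and 0.10.

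The tissue ratio varied less with length and level. In RPKM the median ratio of ectomycorrhiza to mycelium means was 0.95 under 600 bp, 1.14 at 600 to under 1200 bp, 1.19 at 1200 to under 1800 bp and 1.28 at 1800 bp or more. Of the 21 longest members, 11 had both ectomycorrhiza libraries above and 1 had both below. Over all 159 members these counts were 66 and 32, and over all tested gene models the shares were 17.5% and 68.4%. The limits used these values, so nothing is read from the contrast. By mean level, the median ratio was 1.19 in the 40 members under 250 RPKM, 1.18 in the 71 of 250 to under 500, 1.07 in the 31 of 500 to under 1000 and 1.36 in the 17 of 1000 RPKM or more. The ratio of highest to lowest RPKM had medians of 1.56, 1.64, 1.53 and 1.66 over these 4 classes of level, and showed no order with level. Across all 159 members log2 RPKM correlated with Pearson's r = 0.98 between the mycelium libraries, 0.92 between the ectomycorrhiza libraries and 0.87 to 0.92 between tissues, a description of members chosen to be alike in all 4.

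Leaving a library out shows how many gene models each one removed from the set. Over the other 3 libraries, the limits were met by 180 gene models without mycelium replicate 1, 183 without mycelium replicate 2, 203 without ectomycorrhiza replicate 1 and 237 without ectomycorrhiza replicate 2. All 159 members are among each of these, by construction. They made up 88.3%, 86.9%, 78.3% and 67.1% of them, so ectomycorrhiza replicate 2 removed the most gene models that were steady in the other 3 libraries.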

How the data were processed

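RNA of 4 libraries, 2 per group, was read in 100 bp Illumina reads, per the labels and the series text. Per the file headers, the authors deposited total and unique gene reads, which are raw counts, and RPKM values. Each RPKM equals total gene reads per kilobase, scaled to the total gene reads of its library, within 4.97e-06. Aligner, counting settings and use of strand: not given in the sources used here. Overlapping and antisense models may therefore share reads.

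Members and groupings were chosen with earlier results of these data known. Total gene reads entered edgeR 4.0.16 (R 4.3.3), with filterByExpr, which kept 11471 gene models, TMM factors, a robust quasi-likelihood fit with group as the only term, and Benjamini-Hochberg adjustment over all tested models. SE is the absolute log2 fold change over the root of the F statistic. TMM-scaled RPKM is RPKM over the TMM factor. Alternatives used DESeq2 1.42.0, limma 3.58.1 (voom, and log2(RPKM + 1) or log2(RPKM + 0.1), which understates changes of low values), other scalings and filters, unique reads, a replicate block and each library left out. The labels name no pot, day or batch that libraries of the same number share. Replicates were compared for duplicate deposits: per degree of freedom, chi-square reached 71.7 in mycelium and 39.8 in ectomycorrhiza, so each library counted as 1 sample. Named are the 5 most abundant and the 5 steadiest members, the shortest, the longest, those with the largest and smallest log2 fold change, and those next to each limit. Product lists could not be built, since no annotation was used here.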

Additional observations from a re-analysis of the deposited data

How the results depend on the processing

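The number of gene models meeting the limits was 276 with a floor of 100 RPKM, 54 with a highest over lowest of at most 1.5 and 268 with at most 3; it stayed within 1.5 times 159 under the 8 other settings of floor, shared reads and scaling, and was 180 to 237 with a library left out. Under other scalings the gene models themselves changed. The number of members called was 23 with total reads alone (16 higher, 7 lower), 26 with limma on log2(RPKM + 1) (15 and 11, against 12.3% and 56.6% of all tested gene models) and 26 on log2(RPKM + 0.1) (16 and 10, against 11.9% and 53.9%), and 42 to 145 with a library left out (116 without ectomycorrhiza replicate 1 and 145 without replicate 2, against 28.8% and 29.6% of all tested gene models called higher), the lone library being assumed to vary like the other group. The lower count was 0 in each of those 4. The median log2 fold change was 0.81 with upper-quartile scaling, 0.24 with total reads alone, 0.92 with the stricter filter, 0.22 with either limma fit on RPKM, and 0.97 to 1.28 with a library left out. The shares of gene reads were 9.60% to 9.64% in mycelium and 11.1% to 11.8% in ectomycorrhiza by library.

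Same-numbered libraries deviated with r = -0.21 across tested gene models. With the replicate block 111 members were called, all higher, against 45.5% of all tested gene models (21.8% higher and 23.7% lower). Crossing the numbers, a choice made after the data were seen, gave 127, all higher, against 57.2% (26.3% higher and 31.0% lower). Neither block moved a count by over 1.5 times.

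Of 285 alternative log2 fold changes of the 19 named gene models, 23 changed sign. With total reads alone, limma on log2(RPKM + 1) and limma on log2(RPKM + 0.1), the values were -0.060, -0.059 and -0.059 for 441875, -0.10, -0.10 and -0.10 for 439703, -0.79, -0.79 and -0.79 for 443661, -0.089, -0.086 and -0.086 for 445452, -0.66, -0.66 and -0.67 for 165548, and -0.58, -0.63 and -0.63 for 441811. With upper-quartile scaling they were -0.23 for 443661 and -0.10 for 165548, and with the stricter filter -0.12 for 443661. With a library left out, 443661 ranged from -0.026 (without mycelium replicate 1) to 0.19, and 441811 from -0.12 (without ectomycorrhiza replicate 1) to 0.76. A further 62 kept their sign and lost the call. The cause was not tested. Each member had at least 277 reads in every library, and the part of depth was not tested.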
